A study of Mus musculus with 12 samples.

Results

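The genes described here are 10 markers of hepatic stellate cells and of the extracellular matrix: Dcn, Bgn, Col1a1, Col3a1, Col14a1, Ecm1, Reln, Hgf, Lrat and Des. They were picked by symbol, 10 of 35498 genes in the count table, so that genes for secreted matrix proteins could be set against a gene for a cytosolic filament. Their mRNAs were measured in the liver of C57BL/6N mice, all male and aged 9 to 12 weeks, that had fasted overnight and were studied 3 h after feeding again. From each of 6 mice, 1 library came from a postnuclear liver lysate and 1 from the WAM fraction made from that lysate. WAM stands for wrappER-associated mitochondria, which are mitochondria isolated with the rough endoplasmic reticulum (ER) that surrounds them in sheets. All animals had the same strain, sex and feeding state. The comparison therefore asks how much of an mRNA is found in WAM relative to the lysate, and not how a treatment acts. The share of each liver cell type in the WAM fraction was not measured.

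Hepatic stellate cells lie between hepatocytes and the sinusoidal endothelium, store vitamin A as retinyl esters and, after injury, become the main source of collagen in the scarred liver. Collagens and proteoglycans are secreted proteins: a hydrophobic stretch at the start of the growing chain brings the ribosome and its mRNA to the rough ER, where the chain is modified before export. Proteins that stay in the cytosol, such as intermediate filaments, are made on free ribosomes. Desmin, the product of Des, is a filament protein of muscle cells that also marks rodent stellate cells, and it is the only member whose protein is neither secreted nor placed in the ER membrane. Lrat encodes lecithin retinol acyltransferase, the ER membrane enzyme that turns retinol into retinyl esters.

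The beginnings of 5 coding sequences are shown because the genes differ there in a feature tied to ER targeting. Codons with T in the middle position encode only hydrophobic amino acids (phenylalanine, leucine, isoleucine, methionine or valine). Each line gives the first 30 codons, 5′ to 3′ in the sense of the mRNA, and capitals mark the 10 consecutive codons with the most middle T. The spliced sequences come from GENCODE M21 transcripts on build GRCm38. The start codons lie at chr10:97483363-97483365 (Dcn, plus strand), chr3:95739440-95739442 (Ecm1, minus strand), chr5:16553928-16553930 (Hgf, plus strand), chr3:82903710-82903712 (Lrat, minus strand) and chr1:75360418-75360420 (Des, plus strand).
Dcn: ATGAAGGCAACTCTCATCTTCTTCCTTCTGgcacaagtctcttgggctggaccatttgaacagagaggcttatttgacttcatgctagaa
Ecm1: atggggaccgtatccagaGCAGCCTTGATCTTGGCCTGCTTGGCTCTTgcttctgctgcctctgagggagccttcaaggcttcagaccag
Hgf: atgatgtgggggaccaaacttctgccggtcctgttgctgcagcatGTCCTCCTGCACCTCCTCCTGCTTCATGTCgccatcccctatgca
Lrat: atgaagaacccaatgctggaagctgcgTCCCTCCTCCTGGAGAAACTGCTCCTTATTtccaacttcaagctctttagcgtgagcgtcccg
Des: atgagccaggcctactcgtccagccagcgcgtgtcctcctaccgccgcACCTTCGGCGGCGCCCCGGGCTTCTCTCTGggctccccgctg
The marked window held 7 middle-T codons of 10 in Dcn, 5 in Ecm1, 8 in Hgf, 7 in Lrat and 3 in Des. Elsewhere the window held 7 in Bgn, 8 in Reln and 6 in both Col3a1 and Col14a1.

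Libraries held 7400155 to 12023984 estimated counts in lysates and 8344144 to 9712382 in WAM. The members were a small part of them: together they took 0.0232% to 0.0305% of a lysate's counts and 0.0254% to 0.0318% of a WAM library's. The 13 mRNAs encoded in mitochondrial DNA took 2.19% to 3.29% in lysates and 12.5% to 23.1% in WAM. Levels are given as CPM, which are counts scaled to library size, here on the TMM scale, which sets the typical mRNA equal between libraries, so a fold change here is relative to that mRNA. When libraries were scaled to their totals, the median of all tested genes moved by -1.11 on the log2 scale, and with log2(TPM + 1) it moved by -1.14. All members were detected in every library, at 2 counts or more. Dcn, Bgn and the collagens are also known from portal fibroblasts, and these libraries do not assign a member's mRNA to a cell type. In whole liver, fewer cells of a type and less RNA per cell cannot be told apart.

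On the TMM scale, the mRNAs of all 7 matrix proteins rose in WAM by between 1.99-fold and 2.64-fold, Hgf rose less, and neither Lrat nor Des passed the test. A gene was called at an adjusted p under 0.05 in edgeR's quasi-likelihood test over 11181 genes. Of the 10 members, 8 were called higher and 0 lower, where 58.2% of all tested genes were called, 29.5% higher and 28.8% lower. The members' median log2 fold change was 1.16, against -0.08 over all tested genes. Relative to the median gene, the members' median lay between 0.89 and 1.24 on the TMM scale, with library totals and with log2(TPM + 1). On the raw scale of library totals it was 0.04, and with log2(TPM + 1) it was -0.33. With library totals 1 member was called higher and 3 lower, where 510 of all 11181 tested genes were called higher and 8649 lower.

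**Figure D1:**
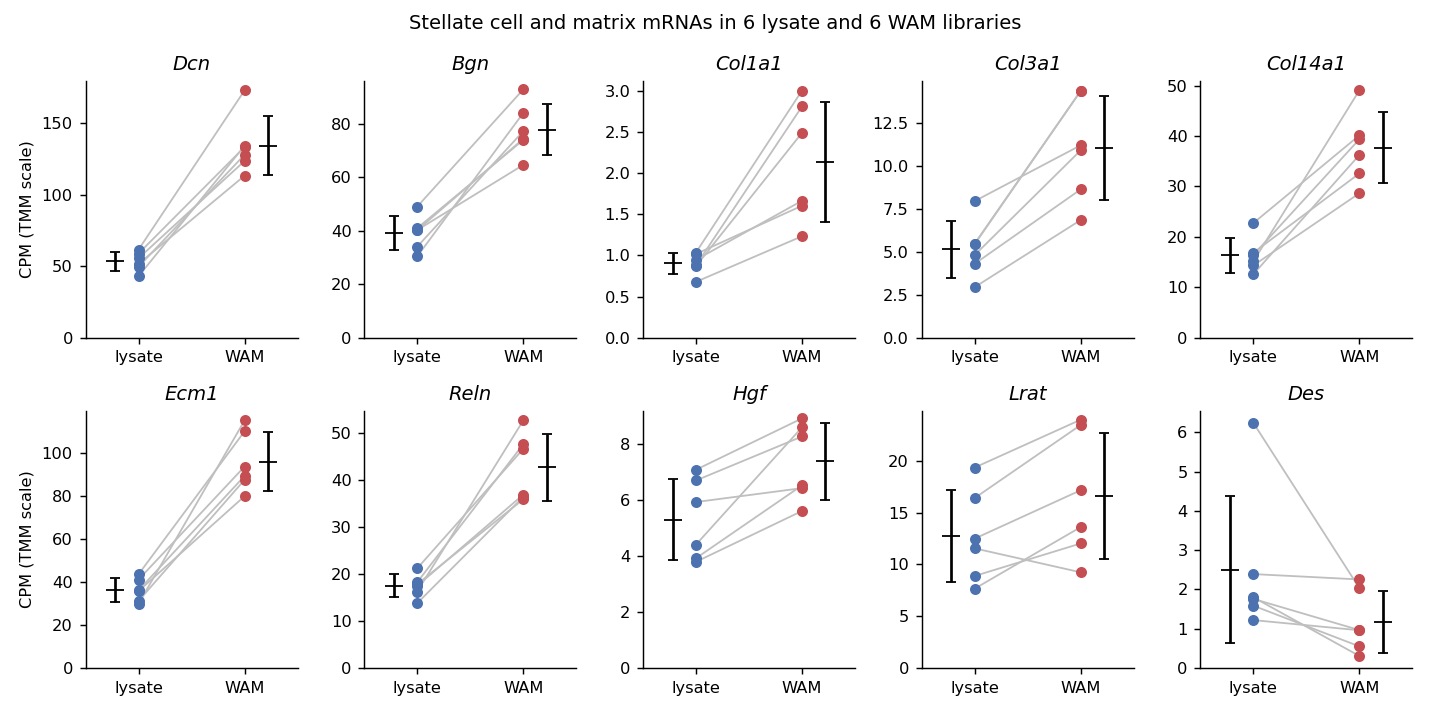
Level of each member in CPM on the TMM scale (linear axes from 0, one scale per panel) in 6 lysate and 6 WAM libraries; grey lines join libraries of a mouse, and black bars give mean ± SD. All lines of the 7 matrix genes and of Hgf climb, 5 of 6 climb for Lrat and none for Des, where the lysate of mouse 3 stands at 6.24 CPM; scaled to library totals, the fold changes of Bgn, Col3a1, Hgf and Lrat turn negative.

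The small leucine-rich proteoglycans decorin and biglycan bind collagen fibrils and growth factors. Dcn (ENSMUSG00000019929, GRCm38 chromosome 10, 97479609 to 97518143) had a lowest, median and highest level of 43.1, 53.7 and 61.7 CPM in lysates and 113, 131 and 173 CPM in WAM. The groups did not overlap, and 34.5% of all tested genes likewise showed no overlap. The mean of Dcn was 53.4 ± 6.7 CPM in lysates and 134 ± 20 CPM in WAM (SD, n = 6 each), and its log2 fold change was 1.33 (SE 0.11, edgeR adjusted p = 3.72e-07). Bgn (ENSMUSG00000031375, chromosome X, 73483602 to 73495933) had 30.4, 40.3 and 49.1 CPM in lysates and 64.7, 75.9 and 93.0 CPM in WAM, again without overlap. Its log2 fold change was 0.99 (SE 0.12, edgeR adjusted p = 6.37e-06), the lowest of the 7 matrix genes.

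Collagen genes ranged widely in level but little in fold change. Type I collagen, whose alpha 1 chain is encoded by Col1a1 (ENSMUSG00000001506, chromosome 11, 94936224 to 94953042), is the main fibril of scar tissue. Its mRNA was near the limit of detection in these healthy livers, with 10, 11 and 13 counts (lowest, median, highest) in lysates and 9, 12 and 18 in WAM. In CPM on the TMM scale these were 0.679, 0.914 and 1.04 against 1.23, 2.08 and 3.00, so the groups did not overlap there. The log2 fold change on that scale was 1.22 (SE 0.24, edgeR adjusted p = 0.000632). Scaled to library totals the groups overlapped, at 0.998 to 1.59 against 0.945 to 1.85 CPM, with WAM higher in 3 of 6 mice. The log2 fold change was then 0.10, not called (edgeR adjusted p = 0.683).

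Col3a1 (ENSMUSG00000026043, chromosome 1, 45311538 to 45349706), the chain of type III collagen, had 2.94, 5.13 and 7.95 CPM in lysates and 6.85, 11.1 and 14.4 CPM in WAM. These ranges overlapped, yet the WAM library was the higher one in 6 of 6 mice, and the log2 fold change was 1.11 (SE 0.23, edgeR adjusted p = 0.00092). Col14a1 (ENSMUSG00000022371, chromosome 15, 55307750 to 55520803) encodes a collagen that sits on the surface of other fibrils. It had 12.6, 15.8 and 22.7 CPM in lysates and 28.6, 37.8 and 49.1 CPM in WAM. Without overlap between the groups, its log2 fold change was 1.21 (SE 0.15, edgeR adjusted p = 9.10e-06).

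The matrix glycoproteins Ecm1 and Reln had 2 of the 3 highest fold changes among the members. Ecm1 (ENSMUSG00000028108, chromosome 3, 95734147 to 95739569) encodes extracellular matrix protein 1, which in liver is made by hepatocytes as well. It had 29.9, 36.0 and 43.6 CPM in lysates and 80.1, 91.7 and 115 CPM in WAM. No WAM library fell within the lysate range, and the log2 fold change was 1.40 (SE 0.12, edgeR adjusted p = 2.97e-07). Reelin, the product of Reln (ENSMUSG00000042453, chromosome 5, 21884454 to 22344702), is a very large secreted glycoprotein that guides neurons in the developing brain and is made in liver by stellate cells. It had 13.8, 17.7 and 21.2 CPM in lysates and 35.9, 41.8 and 52.7 CPM in WAM, and the ranges did not overlap. Its log2 fold change was 1.29 (SE 0.12, edgeR adjusted p = 7.88e-07).

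Hgf and Lrat carry a coding start as rich in middle T as those of Dcn, Bgn and Reln but had smaller fold changes. Hgf (ENSMUSG00000028864, chromosome 5, 16553495 to 16620152) encodes hepatocyte growth factor, the secreted ligand of the receptor Met. It had 3.79, 5.16 and 7.08 CPM in lysates and 5.60, 7.39 and 8.91 CPM in WAM, with overlapping ranges. The log2 fold change was 0.47 (SE 0.19, edgeR adjusted p = 0.0444) with the WAM library higher in 6 of 6 mice. The call was lost whichever mouse was left out (adjusted p from 0.05001 without mouse 2 to 0.158 without mouse 3, with log2 fold changes of 0.37 to 0.54) and without a filter on low counts (0.078). With the mouse as a block it was kept, at an adjusted p of 0.00318, in a fit that called 69.7% of all tested genes.

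Lrat (ENSMUSG00000028003, chromosome 3, 82892579 to 82903973) had 7.66, 12.0 and 19.4 CPM in lysates and 9.24, 15.4 and 24.0 CPM in WAM. The groups overlapped over most of their range, and the WAM library was higher in 5 of 6 mice. The log2 fold change of 0.37 (SE 0.26) was not called in edgeR's test without the mouse (adjusted p = 0.238). In the fit with the mouse as a block it was, at an adjusted p of 0.00577. Lrat was among the most variable members from mouse to mouse, with a coefficient of variation of 35.1% in lysates and 36.8% in WAM, where the medians over all tested genes were 13.5% and 18.1%.

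Des (ENSMUSG00000026208, chromosome 1, 75360329 to 75368579) had a fold change below 0 on the TMM scale, while log2(TPM + 1) centred on each library's median gene gave it 0.17. With log2(TPM + 0.1) Des stood at -0.89 relative to the median gene, and its TPM was lower in WAM in 6 of 6 mice. It had 14, 23.5 and 78 counts (lowest, median, highest) in lysates and 2, 5.5 and 13 in WAM, which in CPM were 1.22, 1.78 and 6.24 against 0.303, 0.961 and 2.25. The ranges overlapped, but the WAM library was the lower one in 6 of 6 mice. The log2 fold change of -1.11 (SE 0.50) missed the threshold in edgeR's test (adjusted p = 0.0701) and passed it with the mouse as a block (adjusted p = 0.00168). Des was over the low-count minimum of 1.18 CPM in 6 lysates and only 2 WAM libraries, so it entered the test through the lysates.

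The lysate of mouse 3 held 78 Des counts where the other 5 lysates held 14 to 30. That library also held 857 counts over 7 skeletal muscle genes (Acta1, Ckm, Myh4, Mylpf, Tnnt3, Tnnc2 and Atp2a1), against 2 to 50 in the other lysates, and its WAM library held 261 against 1 to 21. These muscle genes were chosen after the Des values were seen. Tpm2, a tropomyosin of muscle, had 125 counts in that lysate and 18 to 32 in the others, while Tagln had 31 against 27 to 41. Without mouse 3 the Des log2 fold change was -0.85, not called (edgeR adjusted p = 0.0943).

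A ratio of 2 mRNAs within a library does not depend on how libraries are scaled. Each member was therefore divided by Des, with 0.5 added to both counts. Des is the shared denominator of all 9 ratios, had few counts in WAM and was taken with its values in earlier results known, so these ratios are given as a description, with no test. Dcn had 7.92, 29.4 and 36.5 counts (lowest, median, highest) for each count of Des in lysates and 60.8, 123 and 299.8 in WAM, and the groups did not overlap. On the log2 scale the Dcn to Des ratio was higher in WAM by 2.39 ± 0.72 (SD over 6 mice).

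For each of the other 8 members the ratio was likewise higher in WAM in 6 of 6 mice. The ratios of Ecm1, Reln, Col14a1, Col1a1 and Bgn differed by 2.46, 2.34, 2.27, 2.23 and 2.06 on the log2 scale, all without overlap. For Col3a1, Hgf and Lrat the differences of 2.17, 1.57 and 1.43 came with overlapping ranges. Without mouse 3, whose lysate had the high Des count, the differences ran from 1.32 for Lrat to 2.38 for Ecm1. With the summed counts of 26 cytosolic mesenchymal genes in place of Des they were smaller, from 0.75 for Lrat to 1.78 for Ecm1.

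**Figure D2:**
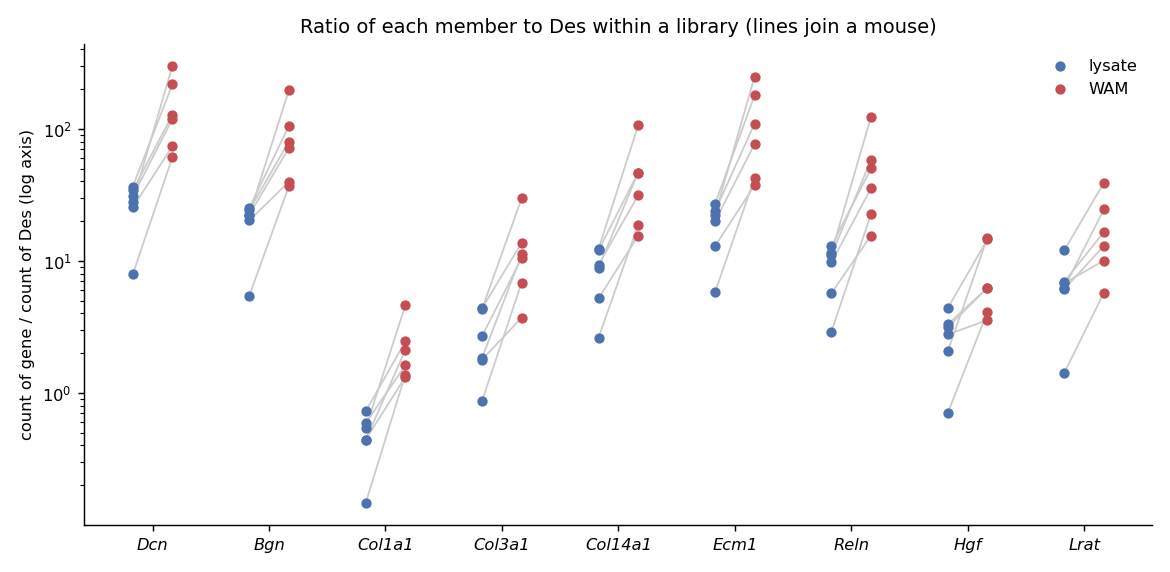
Count of each member divided by the count of Des in the same library (0.5 added to both, log axis), with blue points for 6 lysates, red points for 6 WAM libraries and grey lines joining a mouse. Every line climbs, and the lowest lysate point of each gene is mouse 3, whose Des count was 78.

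Ratios among the 10 members, 45 in all, were added after the data were seen. After adjustment over the 45 by exact permutation tests that did not use the mouse, 5 ratios without Des were called. They set Dcn above Bgn (rise 0.33 on the log2 scale, adjusted p = 0.0122), Hgf (0.82, adjusted p = 0.0122) and Lrat (0.95, adjusted p = 0.0225), and Ecm1 above Hgf (0.90, adjusted p = 0.0225) and Lrat (1.03, adjusted p = 0.0225), in 6 of 6 mice each. Tested within mice by exact sign flips, 25 of the 45 ratios had the same sign in 6 of 6 mice and the smallest p that 6 mice allow, 0.03125, which adjusts to 0.0563, so none was called. Ratios among the 3 collagens, Ecm1 and Reln were not called in either test, which does not show that these mRNAs moved alike.

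The contrast between secreted and cytosolic products was also read on longer lists, named for mesenchymal cells, that hold none of the members. The lists come from the same libraries and fit and were chosen with earlier results known. They are therefore not an independent check. As with the members, these libraries do not assign the mRNAs of a list to a cell type. The secreted list, of matrix and matricellular proteins, had 40 of 44 tested genes called higher on the TMM scale and 1 called lower; its median log2 fold change was 1.18. The cytosolic list, of cytosolic or nuclear proteins of stellate cells, fibroblasts and smooth muscle, had 2 of 26 tested genes called higher and 6 called lower; its median was -0.26. Relative to the median gene, the first median lay between 1.00 and 1.26 and the second between -0.19 and -0.02. These ranges cover the TMM scale, library totals and log2(TPM + 1). With library totals and no such centring, 5 and 9 of the secreted list were called higher and lower, and 0 and 26 of the cytosolic list. There, 510 of all 11181 tested genes were called higher and 8649 lower. With the mouse as a block, 10 of the cytosolic list were called lower, in a fit that called 4044 of all 11181 tested genes lower. Without the mouse, 28.8% of all tested genes were called lower on the TMM scale. In neither of these 2 fits was the list's share called lower far above that of all genes.

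In the secreted list Col18a1, source of the basement membrane collagen that yields endostatin, went from 449 ± 63 to 1269 ± 185 CPM (log2 fold change 1.5). Col1a2, the partner chain of Col1a1 in type I collagen, had the highest log2 fold change, 1.65 (SE 0.20, edgeR adjusted p = 8.09e-06), at 2.91 ± 0.54 and 9.14 ± 2.45 CPM. Cxcl12, a chemokine, stood at 1.03. Col15a1 was the 1 gene called lower, at 3.55 ± 1.48 CPM in lysates and 1.72 ± 0.72 CPM in WAM (log2 fold change -1.06, SE 0.32, edgeR adjusted p = 0.0107). Its WAM level was close to the low-count minimum.

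Of the cytosolic list, the abundant actin-binding genes Cald1 and Palld fell by 0.50 and 0.54 on the log2 scale (edgeR adjusted p = 0.000414 and 0.018). Lhx2, a transcription factor of stellate cells, had the lowest value, -0.78 (SE 0.25, edgeR adjusted p = 0.014). It stood at 2.13 ± 0.26 CPM in lysates and 1.22 ± 0.51 CPM in WAM, where not every library was over the low-count minimum. Like Des, Lhx2 therefore entered the test through the lysates. Flna, which crosslinks actin, had the highest called value at 0.54 (SE 0.21, edgeR adjusted p = 0.0394). Vim, another intermediate filament gene, had -0.29, which was not called; it was singled out after its value was seen.

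Most genes of a list named for the membrane of mesenchymal cells, mainly receptors and channels, were higher in WAM on the TMM scale. Of 19 tested, 16 were called higher and 0 lower, and the median log2 fold change was 0.92. Itgb1, the shared beta chain of matrix receptors, had the highest level and fold change, from 86.1 ± 3.9 to 243 ± 30 CPM (log2 fold change 1.5, SE 0.09, edgeR adjusted p = 4.31e-08). Steap4 stood at 1.02, and Thy1, whose protein is held by a lipid anchor, had the lowest value, -0.45, which was not called. With library totals and no centring, the median of this list was -0.19.

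**Figure D3:**
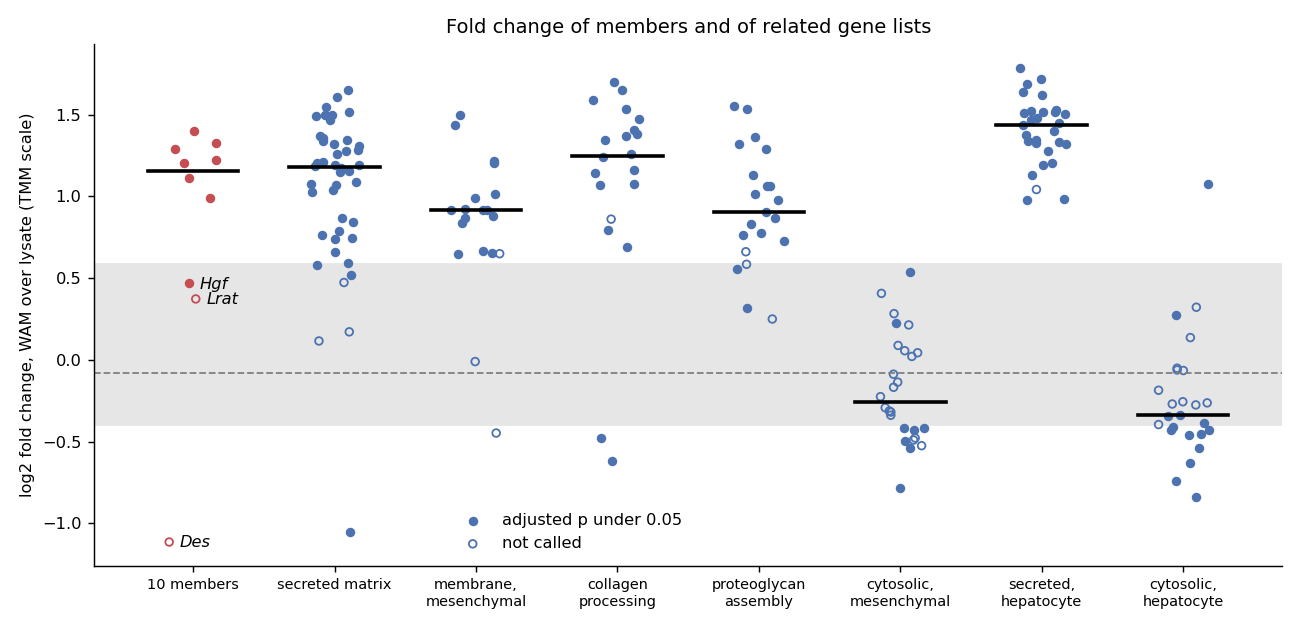
Log2 fold change, WAM over lysate on the TMM scale, of the 10 members (red) and of tested genes in 7 lists (blue); filled points were called, black bars are medians, and the dashed line and grey band give the median and the interquartile range of all 11181 tested genes. The secreted lists lie around 1.2 to 1.4 and the cytosolic lists just below the dashed line; with library totals the whole picture shifts down by 1.11, and the secreted matrix median is then 0.05.

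Most genes of the machinery that builds these proteins in the ER and Golgi were higher in WAM on the TMM scale. Collagen folding, modification and export were represented by 20 tested genes, 17 called higher and 2 called lower (median 1.25; 0.13 with library totals). P4hb, a subunit of prolyl hydroxylase, went from 636 ± 57 to 1997 ± 380 CPM (log2 fold change 1.65), and Crtap, which acts in prolyl hydroxylation, reached 1.70. The 2 called lower were Sec24d (-0.62) and Sec23a (-0.48), whose products are cytosolic coat proteins of vesicles leaving the ER; Sec23a was named after its value was seen. Mia2, a membrane protein of ER exit sites, stood at 0.80.

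Decorin and biglycan carry glycosaminoglycan chains. Among 21 tested genes that build and modify glycosaminoglycan chains, 18 were called higher and 0 lower (median 0.90, or -0.22 with library totals). The list includes heparan sulfate enzymes and is not limited to the chains of decorin and biglycan. Xylt2, which adds the first sugar, went from 8.96 ± 1.04 to 26.3 ± 3.7 CPM (log2 fold change 1.55, SE 0.10, edgeR adjusted p = 5.82e-08). The heparan sulfate enzymes Ndst1 and Hs6st1 stood at 0.73 and 0.87, and Csgalnact2 at 0.25, not called.

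The pathways around Hgf, Reln and Lrat held both kinds of protein, and genes were called in both directions. Of all tested genes, 29.5% were called higher and 28.8% lower, so calls in both directions are not particular to these lists. In the HGF pathway, 9 of 15 tested genes were called higher and 5 were called lower. The secreted zymogen gene Plg (1.48), the receptor gene Lrp1 (1.02) and Spint2 (1.61), for a membrane-bound inhibitor of the proteases that activate HGF, rose, and the cytosolic adaptor gene Gab1 fell by 0.71 on the log2 scale. The receptor gene Met, named after its value was seen, rose from 54.2 ± 5.7 to 111 ± 17 CPM (log2 fold change 1.04, SE 0.11, edgeR adjusted p = 2.25e-06), where its ligand's gene Hgf had 0.47.

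In the reelin pathway the receptor gene Vldlr rose (0.92, SE 0.27, edgeR adjusted p = 0.00866), while 4 of 5 tested genes, all for cytosolic signal proteins, were called lower, among them Crk (-0.50) and Pafah1b1 (-0.48). In retinoid handling, 13 of 23 tested genes were called higher and 5 were called lower, and the median was 1.12. The plasma carrier genes Rbp4 and Ttr reached 1.68 and 1.52, and Rarb, for a nuclear retinoic acid receptor, had the lowest value, -0.93 (SE 0.49), which was not called. In the TGF-beta pathway, which drives collagen synthesis in stellate cells, 8 of 16 were called higher and 5 lower. Over all tested genes the shares were 29.5% higher and 28.8% lower. The receptor genes Eng (1.11) and Tgfbr1 (1.03) and the gene Ltbp4, for a protein that holds latent TGF-beta in the matrix, (1.45) rose, and the nuclear co-repressor gene Skil fell by 0.68 on the log2 scale. With library totals the medians of the HGF, reelin, retinoid and TGF-beta lists were -0.09, -1.59, -0.0028 and -0.54.

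Hepatocyte genes for plasma proteins, 29 tested, had 28 called higher and 0 lower and a median log2 fold change of 1.44. Hepatocyte genes for cytosolic enzymes, 25 tested, had 2 called higher and 12 lower and a median of -0.34. The median was 1.54 over 14 Kupffer cell and macrophage markers (13 called higher) and 1.16 over 18 sinusoidal endothelial markers (all called higher). With library totals these 4 medians were 0.32, -1.44, 0.38 and 0.02. Macrophage markers took 0.0909% of counts in the lysate of mouse 5 and at most 0.0378% in the others, and 0.121% against at most 0.0481% in WAM. Endothelial markers were highest in mouse 5 as well, at 0.0504% against at most 0.04095% in lysates and 0.04745% against at most 0.03655% in WAM. Mouse 5 also had the highest Dcn level in both fractions, 61.7 and 173 CPM, and without mouse 5 the values of the 7 matrix genes were called as before; the part of these cells in the Dcn level was not tested. Few markers of other cells passed the low-count filter: 5 of 13 for cholangiocytes (2 called higher, 2 lower), 3 of 14 for mesothelial and portal cells (3 higher), 2 of 13 for lymphocytes and 1 of 12 for neutrophils (0 called).

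Measured over all genes, the number of middle-T codons at the start of the coding sequence went with the fold change. A window with 7 or more was found in 1251 of 10980 tested genes with a coding start (11.39%). Of these, 80.3% were called higher and 2.72% lower, and their median log2 fold change was 1.2, while 22.9% of the others were called higher and 32.4% lower, with a median of -0.16. Such a window was present in 5 of 9 members examined (Dcn, Bgn, Reln, Hgf and Lrat), in 27 of 44 secreted matrix genes and in 0 of 26 cytosolic mesenchymal genes. Ecm1, the member with the highest fold change, had a window of 5, a count at which 22.1% of genes were called higher. Hgf, with a window of 8, stood at 0.47, where the median of genes with 8 was 1.25. The measure is a simple letter count and marks neither a signal peptide nor a membrane segment as such.

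**Figure D4:**
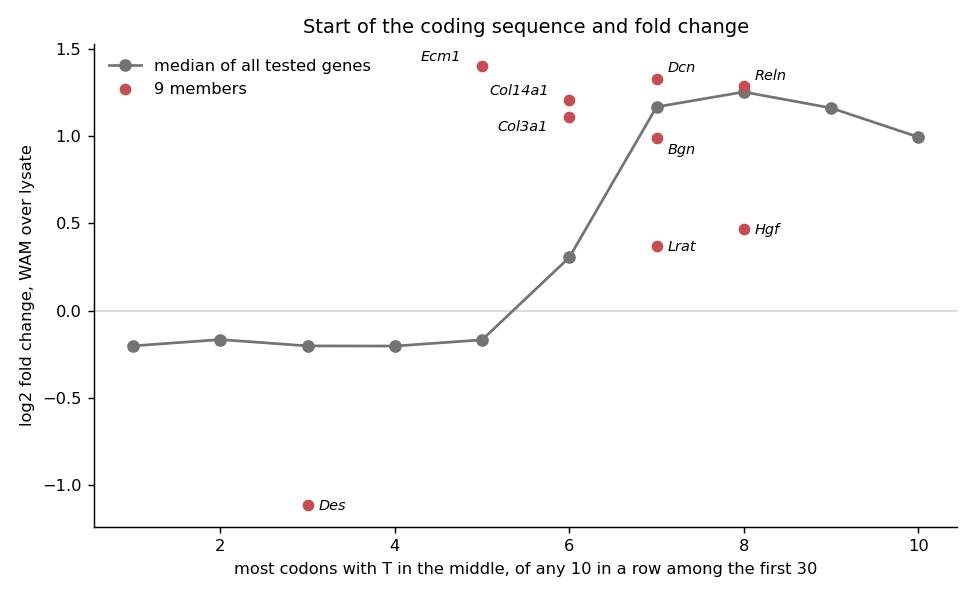
Log2 fold change, WAM over lysate on the TMM scale, against the largest number of codons with T in the middle among any 10 in a row of the first 30; the grey line gives the median of all tested genes at each number and red points are 9 members. The grey line climbs from -0.17 at 5 to 1.17 at 7, Ecm1, Col14a1, Col3a1, Dcn and Reln lie above it, and Bgn, Hgf, Lrat and Des below it; with library totals all values shift down by about 1.11.

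Levels between genes can be compared only per transcript length, as TPM. In lysates Ecm1 and Dcn led with 68.1 ± 12.4 and 67.6 ± 11.2 TPM and could not be ordered, since Ecm1 was above Dcn in 3 of 6 libraries. Bgn followed at 36.8 ± 7.4 TPM without overlap with either neighbour. Below it came Reln (9.39 ± 1.83 TPM), Col14a1 (8.31 ± 1.34), Lrat (4.93 ± 1.93), Col3a1 (3.92 ± 1.75), Hgf (3.53 ± 1.14) and Des (2.02 ± 1.34), each overlapping the next in its range. Col1a1 was last at 0.312 ± 0.047 TPM, apart from Des.

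In WAM, Ecm1 stood alone at the top with 91.5 ± 11.2 TPM, above Dcn (58.1 ± 7.8 TPM) in 6 of 6 libraries and without overlap. The TPM of Ecm1 was higher in WAM than in the lysate in 6 of 6 mice and that of Dcn in 1 of 6, although their CPM fold changes were 1.40 and 1.33 on the log2 scale. The number of reads per unit of TPM, which follows the length of the transcripts to which reads were assigned, differed for Ecm1. Relative to the median gene it was lower in WAM by 0.56 on the log2 scale (6 of 6 mice; range -0.95 to -0.28), against a change of 0.01 for Dcn. For Reln it was lower by 0.45 on average over 6 mice, with 5 of 6 lower and 1 mouse lower by as much as 1.07. For Bgn it was lower by 0.11 on average, in 6 of 6 mice. Which transcripts of Ecm1 took the reads is not given in the gene tables used here.

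Dcn and Ecm1 were the only members in the authors' deposited table of enrichment, which holds 1160 genes; the authors' deposited table of genes at 5 TPM or more in lysates held 5 members, these and Bgn, Col14a1 and Reln. The authors' deposited table gives Ecm1 an enrichment of 29.9% (SEM 3.81), rank 20, and Dcn 19.6% (SEM 3.41), rank 394, where the median of its genes is 15.39%. That enrichment is WAM TPM over lysate TPM after division by a mitochondrial content coefficient.

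Across the 12 libraries, members did not move as 1 block around their fraction means. Over 45 pairs the correlation of log2 CPM deviations had a median of 0.16, and 10 pairs were over 0.5. The highest were Col14a1 with Reln (r = 0.90), Dcn with Lrat (0.82) and Col3a1 with Col14a1 (0.80), and the lowest were Col3a1 with Lrat (-0.71) and with Hgf (-0.69). Outside the members, Dcn was most like Psap, C3, Serping1, Apon and Stab1 (r from 0.94 to 0.96). For Ecm1 these were Serpina1b, Serpina1a, Serpina1d, Dnajc13 and Itih2 (0.88 to 0.91), of which 4 encode plasma protease inhibitors or their chains, and for Bgn they were Clstn1, Cd83, Treml4, Ctps2 and Col4a1 (0.90 to 0.94). The 12 points are 6 mice measured in 2 fractions and share depth, scaling and mouse, so these values are descriptions. Serpina1 genes are near-identical copies, and the split of reads among them is uncertain.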

How the data were processed

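Directional poly(A) libraries were made from 250 ng of RNA of 6 lysates and 6 WAM fractions, the lysate coming from 1 g of liver freed of nuclei by 3 low-speed spins, per the labels' protocols. The authors deposited a table of estimated counts per gene and a table of TPM; the authors' deposited enrichment is a ratio in percent, per the file headers. Tools named in the submitters' processing notes are kallisto 0.44.0, fastp 0.12.4, R 3.5.0 and DESeq2 1.20.0; the build is not given in the sources here. Keeping 1 line per gene left 35498 genes of the 48042 lines in the count table, and estimates (32.5% of non-zero ones not whole within 1e-06) were rounded. A further 60 per-sample columns were not used.

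The fractions were compared with edgeR's quasi-likelihood test (edgeR 4.0.16, limma 3.58.1, R 4.3.3), TMM scaling, filterByExpr (11181 genes kept) and Benjamini-Hochberg adjustment, fraction being the only term. The members passing the low-count filter numbered 10 of 10. SE is the standard error of the fold change on the log2 scale. Ratios of members were compared by two-sided exact permutation over 924 assignments, which give no p under 0.00216, and within mice by 64 sign flips; ratios to Des are given without p. The test was also run on simulated counts. Those stood for independent libraries with few changed genes, without the pairing of mice or the many changes seen here. Members, lists and tests were chosen with earlier results of these data known, and Des as the denominator likewise.

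Column names give the mouse, so equal numbers are the same animal. Deviations of the paired libraries had correlations of 0.45 to 0.77; the highest between different mice was 0.40, and 6 of 6 WAM libraries correlated best with their own lysate. P-values without the mouse term treat the 2 libraries of a mouse as independent. No 2 libraries of a fraction agreed within sampling noise (chi-square per degree of freedom at least 12.3). Named in addition to members are, of each list, the 2 most abundant genes and those with the highest and lowest fold change, and, for the 3 most abundant members, the 5 genes with the most similar deviations. Of 394 list symbols, 392 were in the table. GENCODE M21 on GRCm38 gave positions and coding starts, by Ensembl identifier. Alternatives were other scalings, DESeq2, no filter, limma on log2 TPM with a pseudocount of 1 or 0.1, the mouse as a block and leaving out each mouse. The coding start of 1 member and 1 list gene are not reported here.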

Additional observations from a re-analysis of the deposited data

Results flagged for a closer look

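Among 20 groups of 6 libraries (10 members in 2 fractions), 2 had a library far from the other 5; chance gives about 1 in 20. Dcn stood at 173.15 CPM in the WAM library of mouse 5, where the next highest was 134.36 CPM, a gap of 0.649 of the group's range. In the same library macrophage markers took 0.121% of counts, against at most 0.0481% in the other WAM libraries. Endothelial markers took 0.04745% against at most 0.03655%. The list of neutrophil markers took 0.0601% against at most 0.00126%, nearly all from Lcn2. Lcn2 was the only 1 of the 12 that passed the low-count filter, and a sum carried by 1 gene does not show neutrophils. The part of these genes or their cells in the Dcn value was not tested.

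Des stood at 6.242 CPM in the lysate of mouse 3, where the next highest was 2.3902 CPM, a gap of 0.767 of the range. In that library 7 skeletal muscle genes held 857 counts, against 2 to 50 in the other lysates. Their part in the Des value was not tested; the Des values without mouse 3 stand in the report.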

How the results depend on the processing

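Directions on the TMM scale rest on centring at the typical mRNA. With library totals, 510 genes were called higher and 8649 lower, of the members 1 and 3, of the secreted list 5 and 9 and of the cytosolic list 0 and 26; Bgn (-0.13), Col3a1 (-0.0052), Hgf (-0.64) and Lrat (-0.74) turned negative. With limma on log2(TPM + 1) these counts were 56 and 9570, 1 and 4, 1 and 17, and 0 and 26, and with a pseudocount of 0.1 they were 55 and 9569, 1 and 4, 1 and 16, and 0 and 26. Negative log2 values with a pseudocount of 1 and of 0.1 were Dcn -0.21 and -0.21, Bgn -0.40 and -0.41, Col1a1 -0.015 and -0.10, Col3a1 -0.43 and -0.55, Col14a1 -0.26 and -0.29, Hgf -0.75 and -1.03, and Lrat -0.87 and -1.13. Relative to the median gene, the 7 matrix genes kept values from 0.79 to 1.98 under those settings. With limma on log2(TPM + 1) centred on each library's median gene, added after the data were seen, Des was 0.17, 0 secreted genes were called lower and 5 cytosolic genes higher. Without a filter, 0 cytosolic genes were called higher.

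With the mouse as a block, 9 members were called higher, 1 (Des) lower, and 10 cytosolic genes lower, while over all genes 3747 were called higher and 4044 lower (69.7%). Leaving out each mouse gave 7 to 7 members called higher and 0 to 0 lower, and 38 to 40 secreted genes higher and 1 to 1 lower. Of the cytosolic list, 0 to 1 were called higher and 4 to 8 lower. Over all genes, 2991 to 3254 were called higher and 2699 to 3182 lower. All 9 ratios to Des stayed higher in WAM as TPM, without a pseudocount and with the cytosolic list as denominator. They share 1 denominator with few counts in WAM, and Des was taken with earlier results known, so no test of them is given. Depth limits Col1a1 and Des, at 2 to 78 counts a library.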
